A study of Mus musculus with 32 samples.

Results

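The family of miR-148a, miR-148b and miR-152 was described in mesenteric arteries of mice with and without endothelial overexpression of endothelin-1, a vasoconstrictor peptide. Its members were taken as every row of the miRNA table with the base name miR-148a, miR-148b or miR-152, either arm, which gave 6 of 870 rows. Small RNA libraries came from 4 groups of male mice: ieET-1 at long term (8 libraries), ieCre at long term (7), ieET-1 at short term (8) and ieCre at short term (7). The same age, 10 to 12 weeks, is given for the mice of all groups, so it cannot be the age at killing at both times. All mice carried the tamoxifen-inducible Cre recombinase driven by the Tie2 promoter of endothelial cells, and received tamoxifen subcutaneously at 1 mg/kg per day for 5 days. The ieET-1 mice also overexpressed endothelin-1, and the ieCre mice were their controls. Mice were killed 16 days (short term) or 3 months (long term) after tamoxifen. Of the labelled mice, 2 ieCre animals (1 per time) are not analysed here.

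The family is made from 3 genes. Each gives a hairpin precursor from which Dicer cuts a 5p and a 3p strand, and in this family the 3p strand is the one usually loaded into Argonaute. The 3p strands share a seed, the stretch that pairs with target mRNAs, and so are grouped as 1 family of regulators. Known targets include the DNA methyltransferases DNMT1 and DNMT3B, and miR-148a is known in liver as a regulator of the low-density lipoprotein receptor.

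The mature 3p strands are shown because the shared seed, bases 2 to 8 in capitals, defines the family. Sequences and positions are those of RefSeq on GRCm38.p6, and all 6 rows had an entry.
miR-148a-3p: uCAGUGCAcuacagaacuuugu
miR-148b-3p: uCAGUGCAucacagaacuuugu
miR-152-3p: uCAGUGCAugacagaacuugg
Of 1738 mature mouse sequences searched, only these 3 have this seed. Counting from the 5′ end, miR-148a-3p and miR-148b-3p differ by C9U and U10C and are the same in 20 of 22 bases. From miR-148b-3p to miR-152-3p the changes are C10G and U20G over 21 compared bases. With so few differences, reads with sequencing errors or ambiguous ends could be assigned to the wrong member, and the sources used here do not say how the authors counted such reads.

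The 5p strands are shown because the members differ in how much of this arm was recovered.
miR-148a-5p: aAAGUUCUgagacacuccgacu
miR-148b-5p: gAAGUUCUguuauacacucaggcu
miR-152-5p: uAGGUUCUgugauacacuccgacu
miR-148a-5p and miR-148b-5p share the seed AAGUUCU, while miR-152-5p differs from both by A3G. The first base also differs, with A1G from miR-148a-5p to miR-148b-5p and A1U from miR-148a-5p to miR-152-5p.

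The precursors are given with the 5p arm and then the 3p arm in capitals.
Mir148a: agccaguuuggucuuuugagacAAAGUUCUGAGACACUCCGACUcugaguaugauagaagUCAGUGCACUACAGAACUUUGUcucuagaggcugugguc
Mir148b: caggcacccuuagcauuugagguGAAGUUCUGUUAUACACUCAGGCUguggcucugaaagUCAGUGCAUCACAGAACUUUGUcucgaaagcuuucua
Mir152: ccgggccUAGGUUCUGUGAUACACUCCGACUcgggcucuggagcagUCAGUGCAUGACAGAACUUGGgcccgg
Mir148a lies at chr6:51269812-51269910 on the minus strand and overlaps no other annotated gene. The nearest protein-coding gene, Nfe2l3, is 162760 bases away. Mir148b lies at chr15:103285125-103285221 on the plus strand, within an intron of Copz1 on the same strand. Mir152 lies at chr11:96850393-96850465 on the plus strand, within an intron of Copz2 on the same strand. Copz1 and Copz2 encode the paralogous zeta subunits of the COPI coat, which carries vesicles from the Golgi to the endoplasmic reticulum.

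Values are the authors' normalized signal, which is the share of a library's reads, scaled to a common total and divided by a normalization factor of that library. The 30 libraries held 1820166 to 35531345 recovered miRNA reads, so that 1 read was worth 0.0178 to 0.48 units. The factor averaged 0.941 ± 0.401 in ieET-1 long term, 0.704 ± 0.251 in ieCre long term, 1.29 ± 0.442 in ieET-1 short term and 1.43 ± 0.353 in ieCre short term (SD over 8, 7, 8 and 7 libraries). The factors thus raised long-term signals relative to short-term ones, more so in ieCre. 2 libraries with different genotype labels, ieCre short term 8 and ieET-1 short term 258, had near-identical values (r = 0.99994 on the log2 scale), and values without the pair are given beside the results it moved most. No share passed its test without the pair. The smooth muscle list, both arms of miR-143 and miR-145a, held 28.1% to 68.7% of the signal, and the endothelial list, both arms of miR-126, held 0.161% to 4.43%. In arteries taken whole, fewer cells of a type and less RNA per cell cannot be told apart.

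miR-148a-3p was the main member. It ranked 15th of 870 rows by mean signal, against 73rd for miR-148b-3p and 82nd for miR-152-3p. The lowest, median and highest signals of miR-148a-3p were 2961, 6086 and 14017 in ieET-1 long term, 3273, 4336 and 8676 in ieCre long term, 2248, 3325 and 6081 in ieET-1 short term, and 2970, 3408 and 5674 in ieCre short term. These ranges overlapped between all groups, as did those of the other 4 tested members. Of the 354 tested miRNAs, 0% did not overlap between genotypes at short term and 0% at long term, and between long and short term 1.41% did not overlap in ieET-1 and 1.98% in ieCre. In miR-148a-3p the highest library of all was ieET-1 long term 8135. The values rest on 7082 to 323380 reads per library.

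miR-148b-3p was a minor member. Its lowest, median and highest signals were 121, 159 and 174 in ieET-1 long term, 82.0, 126 and 154 in ieCre long term, 87.6, 128 and 254 in ieET-1 short term, and 94.98, 208 and 359 in ieCre short term. The highest short-term ieCre library, animal 10, was also the highest for miR-152-3p. The miR-152-3p signals were 58.4, 103 and 159 in ieET-1 long term, 48.7, 103 and 174 in ieCre long term, 59.2, 91.4 and 173 in ieET-1 short term, and 64.3, 109 and 399 in ieCre short term.

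The 5p rows were lower than the 3p row of the same precursor in every group. The lowest, median and highest signals of miR-148a-5p were 11.9, 23.4 and 40.6 in ieET-1 long term, 9.80, 27.7 and 48.4 in ieCre long term, 9.31, 18.3 and 26.8 in ieET-1 short term, and 15.3, 18.5 and 23.8 in ieCre short term. miR-152-5p had 4.62, 21.7 and 41.0 in ieET-1 long term, 15.4, 27.3 and 29.96 in ieCre long term, 8.46, 11.5 and 21.8 in ieET-1 short term, and 10.0, 13.2 and 23.3 in ieCre short term. miR-148b-5p was close to the counting limit, with 0 to 48 reads per library and a mean signal of 0.707 ± 0.354 in ieET-1 long term, 0.583 ± 0.622 in ieCre long term, 0.697 ± 0.229 in ieET-1 short term and 0.957 ± 0.505 in ieCre short term (SD over 8, 7, 8 and 7 libraries). It had no read in ieCre long term 9485 and 9491, where a count of 0 allows up to 3 reads, a signal of 0.687 and 1.05. Such limits cover counting error only, since PCR duplicates cannot be told from separate molecules here.

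**Figure D1:**
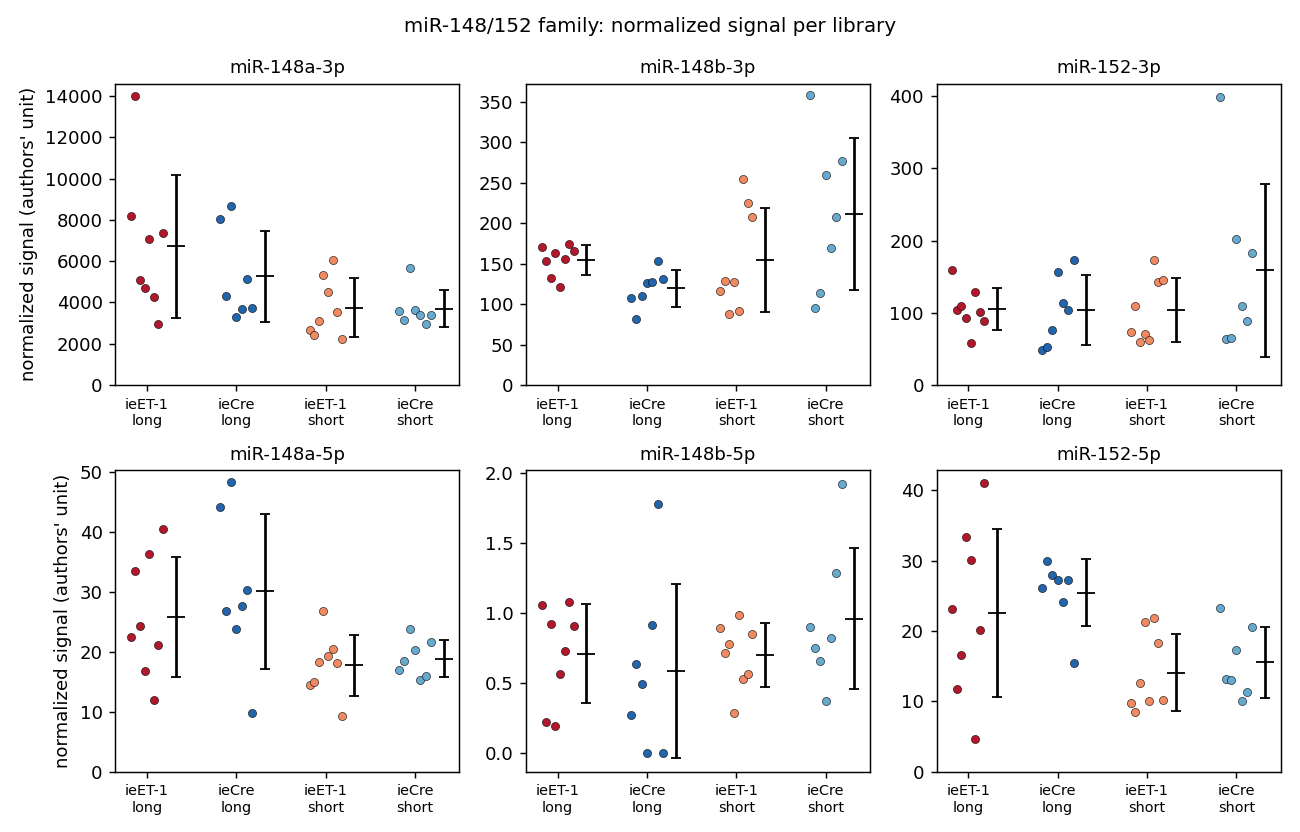
Normalized signal (y axis, authors' unit, linear, starting at 0 except for miR-148b-5p) of the 6 family rows in each library (points) of the 4 groups (x axis), with the mean and SD beside them in black. The groups overlap for every row, miR-148a-3p reaches 14017 in 1 ieET-1 long term library, and miR-148b-3p and miR-152-3p spread most widely in ieCre short term.

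The first question is whether endothelin-1 overexpression moved the family. No member passed the test at either time. The test took the 354 rows that reached a signal of 1 in 8 or more libraries, which include 5 of the 6 members, as miR-148b-5p reached 1 in only 5 libraries. At short term 0 of the 5 members were called by limma at a Benjamini-Hochberg adjusted p under 0.05, where 0% of all 354 were called. At long term it was again 0 of 5 members and 0% of all tested. Without adjustment 0 members had a p under 0.05 at either time, against 9 of 354 miRNAs at short term and 20 at long term. edgeR and DESeq2 on the recovered reads also called 0 miRNAs in both comparisons.

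At short term miR-148a-3p averaged 3744 ± 1423 in ieET-1 arteries and 3695 ± 905 in ieCre arteries (SD, n = 8 and 7). Its limma log2 change was -0.04 ± 0.28 (SE), with an adjusted p of 0.99, and the 95% interval ran from -0.61 to 0.53. miR-148b-3p averaged 155 ± 64.5 in ieET-1 and 212 ± 94.3 in ieCre arteries, a limma log2 change of -0.42 ± 0.25 with an adjusted p of 0.99 and 6 of 8 ieET-1 libraries below the ieCre mean. miR-152-3p averaged 105 ± 44.3 in ieET-1 and 159 ± 119 in ieCre arteries. The difference was again within the spread between libraries, with a limma log2 change of -0.42 ± 0.34 and an adjusted p of 0.99. Without the near-identical pair the limma log2 changes of miR-148b-3p and miR-152-3p were -0.49 and -0.48, with adjusted p of 0.963 and 0.982. Without ieCre short term 10, the highest library of both, they were smaller, at -0.27 and -0.15, each with a limma adjusted p of 0.994.

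Within the short-term animals numbered below 1000 (4 ieET-1 and 4 ieCre libraries), miR-148b-3p and miR-152-3p had log2 changes of -0.76 ± 0.40 and -0.87 ± 0.54, and within those numbered 8000 or above (4 and 3) -0.11 ± 0.31 and 0.06 ± 0.36. Neither range held a called member, and the labels do not say whether ranges of animal number mark litters or batches.

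At long term miR-148a-3p averaged 6715 ± 3443 in ieET-1 arteries and 5275 ± 2205 in ieCre arteries (SD, n = 8 and 7), with 4 of 8 ieET-1 libraries above the ieCre mean. The limma log2 change was 0.30 ± 0.28 with an adjusted p of 0.948. With a term for the range of animal number it was 0.01 ± 0.25, and within the ranges it was 0.11 ± 0.37 (8000s, 6 ieET-1 and 3 ieCre libraries) and -0.14 ± 0.29 (9000s, 2 and 4 libraries). The long-term ranges were thus filled unevenly by the genotypes, and the change of miR-148a-3p was close to 0 in the authors' scaling with the term. Scaled to all miRNA reads, without the term, it was 0.72 ± 0.30 with a limma adjusted p of 0.636, where the median of all tested miRNAs was 0.31. As a share of all miRNA signal miR-148a-3p averaged 0.594% in ieET-1 and 0.362% in ieCre in the 8000s, and 0.565% and 0.350% in the 9000s.

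miR-148b-3p averaged 154 ± 18.7 in long-term ieET-1 arteries and 120 ± 22.6 in ieCre arteries, with 8 of 8 ieET-1 libraries above the ieCre mean. The groups still overlapped, as the lowest ieET-1 library had 121 and the highest ieCre library 154. Its limma log2 change of 0.38 ± 0.25 had an adjusted p of 0.854, the lowest of the 5 members. With a term for the range of animal number it was 0.47 ± 0.23 with an adjusted p of 0.345. Within the 8000s it was 0.59 ± 0.21 and within the 9000s 0.29 ± 0.24. Scaled to all miRNA reads it was 0.79 ± 0.35, with a limma adjusted p of 0.636 (median of all tested 0.31). miR-152-3p, at 105 ± 29.4 in ieET-1 and 104 ± 48.4 in ieCre arteries, had a log2 change of 0.12 ± 0.34, and its 95% interval of -0.58 to 0.81 leaves room for changes in either direction. Within the 8000s it was 0.73 ± 0.30 and within the 9000s -0.22 ± 0.30, with limma adjusted p of 0.299 and 0.828. With a term for the range it was 0.35 ± 0.34, and scaled to all miRNA reads 0.52 ± 0.44.

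The 5p members had log2 changes of -0.12 (miR-148a-5p) and -0.16 (miR-152-5p) at short term and of -0.17 and -0.36 at long term, with limma adjusted p between 0.922 and 0.990. Within ranges miR-152-5p was -0.63 ± 0.24 in the short-term animals below 1000 and 0.35 ± 0.35 in those numbered 8000 or above, and -0.21 ± 0.37 in the long-term 8000s and -1.13 ± 0.52 in the 9000s, with limma adjusted p of 0.469, 0.759, 0.831 and 0.444.

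The effect of genotype at long term minus that at short term was tested in the same fit. No member and 0% of the 354 miRNAs were called by limma, and 24 miRNAs had an unadjusted p under 0.05. miR-148b-3p was 1 of them. Its difference of log2 changes was 0.80 ± 0.35, with an unadjusted p of 0.0317 and a limma adjusted p of 0.602. Scaled to all miRNA reads it was 1.40 ± 0.49, with an adjusted p of 0.381 where the median of all tested miRNAs was 0.52. The other 4 members had differences between -0.20 and 0.53. With both times averaged, 0 of 5 members and 0% of all tested miRNAs were called by limma, and 5 of the 354 had an unadjusted p under 0.05. The averaged log2 changes ran from -0.26 for miR-152-5p to 0.13 for miR-148a-3p. edgeR and DESeq2 called 0 miRNAs in both of these comparisons.

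**Figure D2:**
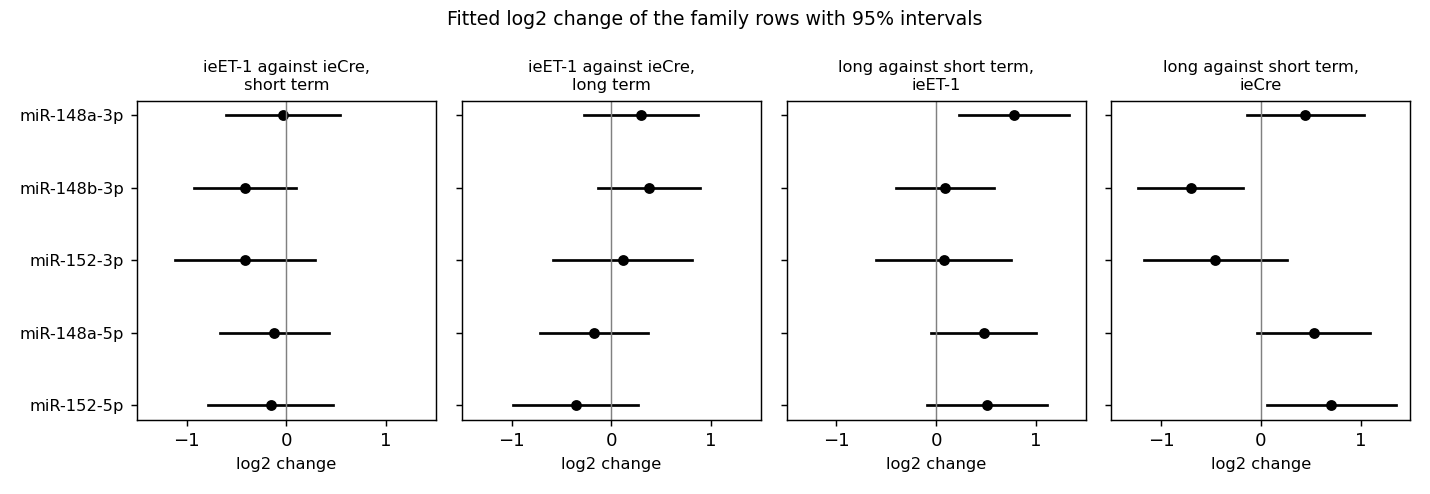
Limma log2 change (x axis) of the 5 tested family rows (y axis) in the 4 comparisons between groups (panels), points with 95% intervals. All 10 genotype intervals include 0, while 3 of the 10 time intervals do not, those of miR-148a-3p in ieET-1 and of miR-148b-3p and miR-152-5p in ieCre, none of which passed the adjustment over 354 miRNAs.

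The second question is how the family differed between 3 months and 16 days after tamoxifen, which is also a difference in the age of the mice. miR-148a-3p and both tested 5p rows had higher mean signals at long term in both genotypes, while miR-148b-3p and miR-152-3p had lower means at long term in ieCre and near-equal means in ieET-1; scaled to all miRNA reads, the 3 rows were lower at long term in ieCre (log2 changes of -0.64, -0.50 and -0.32, where the median of all tested miRNAs was -0.92), and in ieET-1 they were 0.31, 0.0267 and 0.0610, with miR-148b-3p and miR-152-3p at -0.38 and -0.39 (median -0.46). None of these changes passed the test. In ieET-1 0 of 5 members were called by limma, against 5.93% of the 354 miRNAs, and in ieCre 0 of 5 members, against 7.91%. Of these, 1.98% of all tested in ieET-1 and 2.26% in ieCre were called as higher at long term. That split depended on the scaling and the test. In ieET-1 7 of 21 calls were higher with limma, against 0 of 18 when scaled to all miRNA reads, 22 of 38 with edgeR and 29 of 47 with DESeq2. In ieCre 8 of 28 were higher, against 0 of 212 when scaled to all miRNA reads, 16 of 33 with TMM scaling, 14 of 34 with median-of-ratios scaling, 16 of 30 with edgeR and 18 of 44 with DESeq2. By unadjusted p under 0.05 it was 1 member in ieET-1 and 2 in ieCre, against 83 and 92 of 354. These comparisons use the same libraries as those between genotypes and are not independent of them.

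In ieET-1 arteries miR-148a-3p averaged 6715 ± 3443 at long term and 3744 ± 1423 at short term (SD, n = 8 each), and 7 of 8 long-term libraries were above the short-term mean. Its fold was 1.72 (95% interval 1.17 to 2.52) on the log2(signal + 1) scale, with a limma adjusted p of 0.0841. It passed the threshold with edgeR (log2 change 0.85, adjusted p 0.0487) and with DESeq2 (0.90, adjusted p 0.0222), and with limma when ieET-1 short term 8990 (0.90, adjusted p 0.0355) or ieET-1 long term 9489 (0.93, adjusted p 0.0259) was left out. With only animals numbered 8000 or above it was 0.59 ± 0.35, with a limma adjusted p of 0.535, and without the near-identical pair it was 0.76 ± 0.29, with an adjusted p of 0.153. The call therefore depends on the test and on single libraries.

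In ieCre arteries miR-148a-3p averaged 5275 ± 2205 at long term and 3695 ± 905 at short term (SD, n = 7 each), a log2 change of 0.45 ± 0.29 with a limma adjusted p of 0.331. As a share of all miRNA signal the order was the other way, with 0.355% ± 0.144 at long term and 0.518% ± 0.125 at short term. That share had an exact two-sided permutation p of 0.0437, or 0.253 adjusted over the 36 tests of shares. In ieET-1 the share was 0.586% ± 0.294 at long term and 0.453% ± 0.164 at short term, with an exact permutation p of 0.300, or 0.566 adjusted. By range of animal number, the long-term signal of miR-148a-3p averaged 7751 ± 3358 in ieET-1 and 7026 ± 2350 in ieCre animals of the 8000s (SD, 6 and 3 libraries), but 3607 ± 913 and 3962 ± 822 in the 9000s (2 and 4 libraries), close to the short-term means of 3744 and 3695. The higher long-term means thus lay in the 8000s. The direction of miR-148a-3p over time in ieCre therefore depended on how the libraries were scaled.

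Markers of other tissues were seen beside these values. The pancreas and liver list held 10 rows, each with reads in some library of the series. It summed to 52.7 to 1084.5 in ieET-1 long term, 14.3 to 4178 in ieCre long term, 18.7 to 429.6 in ieET-1 short term and 26.8 to 164 in ieCre short term. The epithelial list held 16 rows, each also with reads in some library. It summed to 477 to 11038 in ieET-1 long term, 635 to 1337 in ieCre long term, 317 to 818 in ieET-1 short term and 324 to 1189.5 in ieCre short term. The library highest in the epithelial list was ieET-1 long term 8135, which was also highest in miR-148a-3p, and the one highest in the pancreas and liver list was ieCre long term 8088, with a miR-148a-3p signal of 8066. Their part in the miR-148a-3p values was not tested. Of the tested rows of these lists, 0 of 4 pancreas and liver rows and 1 of 8 epithelial rows were called as higher at long term in ieET-1, and 0 of 4 and 0 of 8 in ieCre. Among all 354 tested miRNAs 1.98% in ieET-1 and 2.26% in ieCre were called as higher, and 5.93% and 7.91% in either direction. Of the smooth muscle rows 0 of 4 were called in ieET-1 and 1 of 4 as higher at long term in ieCre, with median log2 changes over the 4 rows of -0.16 and 0.73. The summed signal of this list had higher medians at long term in both genotypes. These were 656520 at long term and 279080 at short term in ieET-1, and 643160 and 260180 in ieCre. This list held 35.2% to 68.7% of the signal in ieET-1 long term, 33.7% to 66.5% in ieCre long term, 34.4% to 52.7% in ieET-1 short term and 28.1% to 46.1% in ieCre short term. Of 3 erythroid rows none was called by limma, with median log2 changes of -0.54 in ieET-1 and -0.76 in ieCre. The nerve list, 7 rows of miR-9, miR-124 and miR-129, had a median sum of 344 at long term and 124 at short term in ieET-1. In ieCre it was 310 and 183. Of 4 tested nerve rows none was called by limma, with median log2 changes of 0.54 and 0.30. Of 6 tested leukocyte rows none was called either, with medians of -0.10 and -0.02. The part of these lists in the family's values was not tested.

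miR-148b-3p was the member nearest to a call in ieCre. It averaged 120 ± 22.6 at long term and 212 ± 94.3 at short term (SD, n = 7 each), and 7 of 7 long-term libraries were below the short-term mean. The groups overlapped, as the 2 lowest short-term libraries, 8 and 932, had 94.98 and 113. Its log2 change was -0.71 ± 0.26, with a limma adjusted p of 0.0792. It passed the threshold without the near-identical pair, which includes ieCre short term 8 (-0.87, adjusted p 0.0269), without ieCre short term 932 (-0.83, adjusted p 0.0385), with animals numbered 8000 or above only (-0.86, adjusted p 0.0303), with DESeq2 (-0.74, adjusted p 0.0493) and with scaling to all miRNA reads (-1.78, adjusted p 0.000622), but not with edgeR (-0.71, adjusted p 0.108), TMM scaling (-0.59, adjusted p 0.172), median-of-ratios scaling (-0.62, adjusted p 0.113), without libraries under 5000000 reads (-0.64, adjusted p 0.145) or with only the groups compared (-0.71, adjusted p 0.140). With scaling to all miRNA reads limma called 212 of the 354 miRNAs, 0 of them higher, and the median log2 change was -0.92. Without ieCre short term 10, its highest short-term library, miR-148b-3p had a log2 change of -0.56 with a limma adjusted p of 0.173.

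In ieET-1 arteries miR-148b-3p averaged 154 ± 18.7 at long term and 155 ± 64.5 at short term (SD, n = 8 each), with a log2 change of 0.09 ± 0.24. Both means were nearly equal, but the spread was wider at short term. miR-152-3p averaged 104 ± 48.4 at long term and 159 ± 119 at short term in ieCre arteries, with a log2 change of -0.46 ± 0.35 and a limma adjusted p of 0.408, or -1.52 and 0.00734 when scaled to all miRNA reads. That scaling called 212 of the 354 miRNAs in ieCre, 0 of them higher, with a median of -0.92. In ieET-1 miR-152-3p averaged 105 ± 29.4 at long term and 105 ± 44.3 at short term.

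Of the 5p rows, miR-148a-5p averaged 25.9 ± 10.0 at long term and 17.8 ± 5.10 at short term in ieET-1, and 30.1 ± 12.9 at long term and 18.9 ± 3.13 at short term in ieCre. The log2 changes were 0.48 ± 0.26 and 0.53 ± 0.28, with limma adjusted p of 0.244 and 0.218. Without ieCre long term 9491, the lowest of its group, the ieCre change was 0.76 with a limma adjusted p of 0.0438, and with DESeq2 on all libraries it was 0.78 with an adjusted p of 0.0493. miR-152-5p averaged 22.6 ± 11.9 at long term and 14.1 ± 5.50 at short term in ieET-1, and 25.4 ± 4.77 at long term and 15.5 ± 4.99 at short term in ieCre. The log2 changes were 0.51 ± 0.30 and 0.71 ± 0.32, with limma adjusted p of 0.281 and 0.148, and without ieET-1 long term 9490 the ieET-1 change was 0.77 with an adjusted p of 0.0482.

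The proportions of the members within a library do not depend on its scaling. miR-148a-3p made up 95.5% ± 2.17 of the 3p reads of the family in ieET-1 long term, 95.2% ± 2.52 in ieCre long term, 92.9% ± 3.47 in ieET-1 short term and 90.7% ± 4.79 in ieCre short term (SD over 8, 7, 8 and 7 libraries). In every library it was at least 82.6%. miR-148b-3p took 2.68% ± 1.34, 2.46% ± 0.980, 4.18% ± 2.005 and 5.35% ± 2.31 in the same order of groups, and miR-152-3p 1.81% ± 0.885, 2.31% ± 1.59, 2.87% ± 1.49 and 3.93% ± 2.68. Because all 3 shares add to 100%, they are not independent of each other.

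None of the 36 exact permutation tests of shares (9 shares in 4 comparisons) passed after adjustment. In ieCre the share of miR-148b-3p among the 3p members was lower at long term in 7 of 7 libraries relative to the short-term mean, with an exact permutation p of 0.0134, or 0.157 adjusted. In ieET-1 the same share was lower in 7 of 8 libraries, with an exact permutation p of 0.0977, or 0.287 adjusted. The share also differed between ranges of animal number: at long term it averaged 2.11% in ieET-1 and 1.46% in ieCre in the 8000s (6 and 3 libraries), and 4.41% and 3.22% in the 9000s (2 and 4 libraries). At short term it averaged 4.99% and 6.05% in animals numbered 8000 or above and 3.38% and 4.83% in those below 1000. Between genotypes it differed by -1.17 percentage points at short term and 0.22 at long term, with exact permutation p of 0.306 and 0.737. The lowest p of all was for miR-148b-3p as a share of all miRNA signal, at 0.00885% ± 0.00426 in ieCre long term and 0.0305% ± 0.0180 in ieCre short term, with an exact permutation p of 0.00175, or 0.0629 adjusted. A lower share of all signal at long term in ieCre was not particular to this row. Scaled to all miRNA reads, limma called 212 of the 354 miRNAs there, 0 of them higher, with a median log2 change of -0.92. Without ieCre short term 932, the long-term minus short-term difference passed adjustment for 3 ieCre shares: miR-148b-3p among the 3p members (adjusted exact permutation p = 0.0420), miR-148b-3p of all signal (0.0210) and miR-152-3p of all signal (0.0490).

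**Figure D3:**
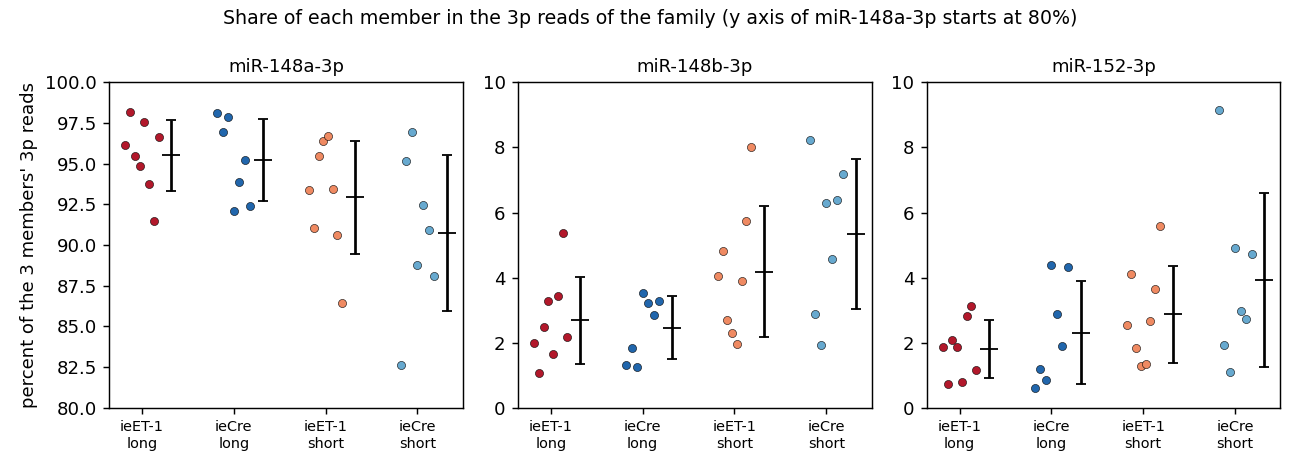
Percent of the family's 3p reads (y axis; it starts at 80% for miR-148a-3p) taken by each of the 3 members in each library (points) of the 4 groups (x axis), with the mean and SD in black. miR-148a-3p is above 82% in every library, and the means of miR-148b-3p are 2.68% and 2.46% in the long-term groups and 4.18% and 5.35% in the short-term groups.

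Together the 3p members, without their 5p strands, made up 0.611% ± 0.297 of all miRNA signal in ieET-1 long term, 0.372% ± 0.146 in ieCre long term, 0.483% ± 0.161 in ieET-1 short term and 0.573% ± 0.146 in ieCre short term (SD over 8, 7, 8 and 7 libraries). Single libraries ranged from 0.132% to 1.22%. This sum follows miR-148a-3p, its largest part.

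The arms were used unequally by the 3 precursors. The 5p strand was 0.499% ± 0.135 of both arms for miR-148a and 0.495% ± 0.295 for miR-148b (SD, n = 30 libraries each), but 16.2% ± 9.14 for miR-152. The ranges of miR-152 and of the other precursors did not overlap: its lowest library had 3.47%, while the highest of miR-148a had 0.741% and the highest of miR-148b 1.14%. For miR-148b the 2 libraries with no 5p read allow up to 0.546% and 0.798% of the 3p reads. Ligation and amplification differ between sequences in small RNA libraries, so the ratio of the arms in reads need not be that in the tissue.

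The 5p share of miR-152 varied widely between libraries. Its lowest, median and highest values were 3.47%, 14.8% and 34.0% in ieET-1 long term, 8.15%, 20.9% and 36.0% in ieCre long term, 6.60%, 11.6% and 23.2% in ieET-1 short term, and 5.51%, 10.2% and 17.1% in ieCre short term. In ieCre it averaged 22.7% ± 10.4 at long term and 10.997% ± 4.40 at short term (n = 7 each), with an exact permutation p of 0.0175, or 0.157 adjusted over 36 tests. In ieET-1 it averaged 18.5% ± 10.9 at long term and 12.9% ± 5.46 at short term (n = 8 each), with an exact permutation p of 0.213, or 0.479 adjusted. The long-term values followed the range of animal number: ieET-1 and ieCre animals averaged 21.3% and 32.5% in the 8000s (6 and 3 libraries) and 10.0% and 15.3% in the 9000s (2 and 4 libraries). At short term the means were 13.1% in ieET-1 and 9.95% in ieCre for animals numbered 8000 or above, and 12.6% and 11.8% for those below 1000. The genotypes did not differ beyond the spread between libraries at either time, with exact permutation p of 0.488 at short term and 0.452 at long term.

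**Figure D4:**
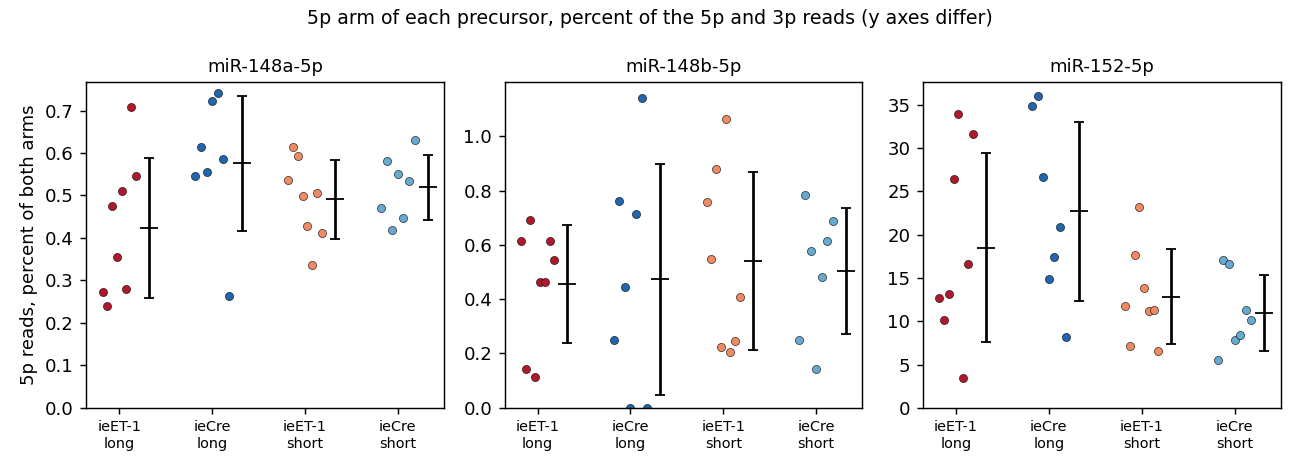
5p reads as percent of both arms (y axis, different for each panel) for the 3 precursors in each library (points) of the 4 groups (x axis), with the mean and SD in black. The values of miR-152 lie between 3.47% and 36.0%, and those of miR-148a and miR-148b do not pass 1.14%.

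Across libraries miR-148b-3p and miR-152-3p varied together, and in the authors' scaling miR-148a-3p did not vary with them. Over the 30 libraries Pearson's r of log2(signal + 1) was 0.83 and Spearman's rho 0.78 between miR-148b-3p and miR-152-3p, each with a permutation p of 1e-05, the smallest that 100000 permutations can give, or 0.00027 adjusted over 27 relations. Without the 2 libraries farthest from the median of miR-148b-3p r was 0.76, and without the near-identical pair it was 0.81. Within groups r was 0.59 in ieET-1 long term, 0.71 in ieCre long term, 0.96 in ieET-1 short term and 0.92 in ieCre short term, with adjusted exact permutation p of 0.412, 0.256, 0.00179 and 0.0228. In ieET-1 long term r fell to 0.06 without the 2 farthest libraries, so the relation there rests on them. Within ranges of animal number r was 0.79 in the long-term 8000s (9 libraries), -0.66 in the long-term 9000s (6), 0.89 in the short-term animals numbered 8000 or above (7) and 0.98 in those below 1000 (8). In the authors' scaling the relation was thus closest in the short-term libraries and did not hold in the long-term 9000s. As shares of all miRNA signal r was 0.88 in ieET-1 long term, 0.91 in ieCre long term, 0.96 in ieET-1 short term and 0.94 in ieCre short term. Without the 2 farthest libraries of each group these fell to 0.57, 0.66, 0.69 and 0.64. The unadjusted exact permutation p were then 0.251, 0.258, 0.149 and 0.233. In the long-term 9000s r was 0.65 on that scale, or -0.68 without the 2 farthest libraries. The contrast between times and ranges therefore depended on the scaling.

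miR-148a-3p had r of -0.13 with miR-148b-3p (rho -0.16) and -0.22 with miR-152-3p (rho -0.20), with permutation p of 0.478 and 0.245 and adjusted p of 0.965 and 0.601. As shares of all miRNA signal r was 0.40 with miR-148b-3p and 0.31 with miR-152-3p, so the sign of both depends on the scaling. The unadjusted permutation p on that scale were 0.0282 and 0.0993, and without the 2 farthest libraries r was 0.21 and 0.09.

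**Figure D5:**
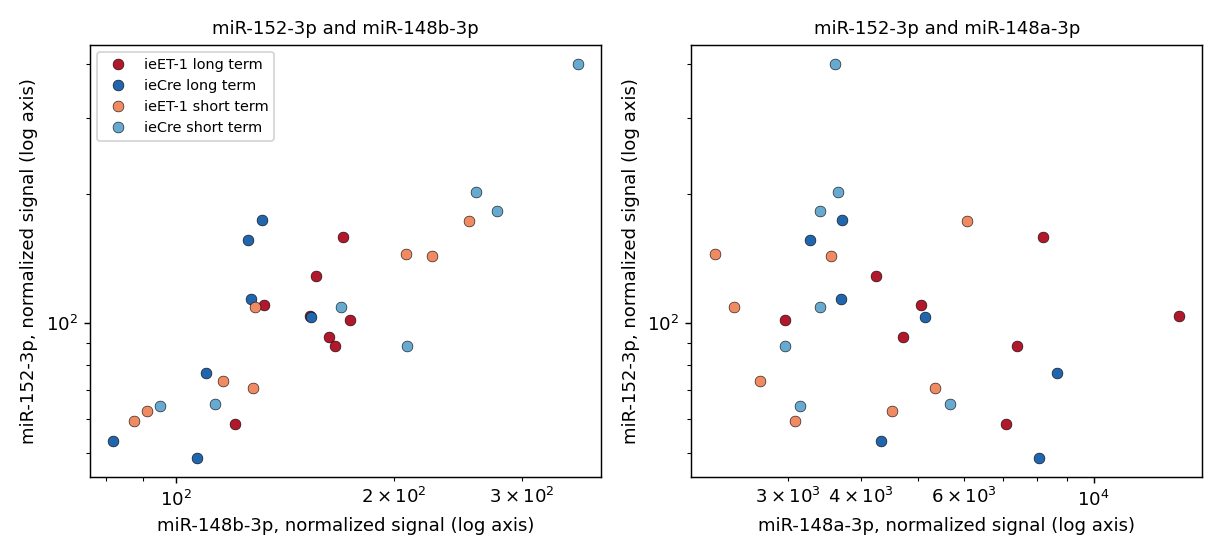
Normalized signal of miR-152-3p (y axis, log) against miR-148b-3p (left, x axis, log) and miR-148a-3p (right, x axis, log), 1 point per library, coloured by group. The left panel rises along a line (r = 0.83 over 30 libraries), and the right panel shows no such rise (r = -0.22).

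With each library centred on the median of its tested miRNAs, miR-148b-3p and miR-152-3p ranked 1st of the 353 other tested miRNAs for each other (r = 0.81). This is a description of these libraries, without a test. miR-148a-5p ranked 4th for miR-148a-3p (r = 0.73), so the arms of that precursor varied together. miR-152-5p ranked 172nd for miR-152-3p (r = -0.04), so the arms of that precursor did not.

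Outside the family, the miRNAs most like miR-148a-3p over the 30 libraries were miR-182-5p (r = 0.84), miR-98-5p (0.79) and miR-9-5p (0.74). Those most like miR-148b-3p were miR-18a-5p (0.73), miR-199b-5p (0.66) and miR-106b-5p (0.65), and those most like miR-152-3p were miR-18a-5p (0.77), miR-374b-5p (0.76) and miR-199a-3p (0.75). miR-18a-5p headed both of these lists, while none of the 3 named for miR-148a-3p was on either.

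Other miRNAs reported to lower DNA methyltransferase mRNAs were set beside the family: miR-29a-3p, miR-29b-3p, miR-29c-3p, miR-140-5p, miR-185-5p and miR-342-3p, all 6 tested. Between genotypes 0 of the 6 were called by limma at either time, where 0% of all 354 were called. Their median log2 change was -0.10 at short term and 0.14 at long term, against -0.16 and 0.12 for the 5 family members and -0.04 and -0.01 for all 354. Over time in ieET-1, 1 of the 6 was called as higher at long term by limma, against 1.98% of all 354. This was miR-29b-3p, with 26.02 at long term and 14.9 at short term, a log2 change of 0.81 ± 0.25 and a limma adjusted p of 0.0481. The 21 calls over all tested miRNAs in that comparison fell to 7 without the near-identical pair. With animals numbered 8000 or above, where fewer libraries are compared, they fell to 0. The median of the 6 in that comparison was 0.09, against 0.48 for the family and -0.09 for all 354. In ieCre 0 of the 6 were called by limma over time, against 7.91% of all tested. The medians were -0.16 for the 6, 0.45 for the family and -0.13 for all tested. These family medians include the 5p rows, which have other seeds than the 3p rows. Alone, miR-148a-3p, miR-148b-3p and miR-152-3p had log2 changes over time of 0.45, -0.71 and -0.46 in ieCre. In ieET-1 they had 0.78, 0.09 and 0.07. Between genotypes they had -0.04, -0.42 and -0.42 at short term and 0.30, 0.38 and 0.12 at long term. miR-29c-3p had the lowest unadjusted p of the 6 between genotypes at long term, at 0.0523, with mean signals of 64.2 in ieET-1 and 44.2 in ieCre arteries and a limma adjusted p of 0.805.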

How the data were processed

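Per the labels' protocols, 1 µg of total RNA from mesenteric arteries, cleared of fat and veins, went into TruSeq small RNA libraries. Tools in the submitters' processing notes, with no role stated, are STAR 2.3.1, edgeR 3.6.8, R 3.2.3, FastQC and bcl2fastq 1.8.4. No source used here names the genome build or annotation. The authors deposited a normalized signal for each miRNA in each library. All values (100% within 0.001) were whole multiples of the value of 1 read, so the read counts behind the deposited signal were recovered.

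Genotype and time in the labels gave the groups. The 354 of 870 rows that reached a signal of 1 in 8 or more libraries entered the test, on log2(signal + 1), with limma 3.58.1 (R 4.3.3; 4 group means, intensity trend, two-sided, Benjamini-Hochberg threshold 0.05); folds on this scale understate changes of low rows. Libraries are taken as separate mice, as numbered in the labels. Shares were compared with exact permutation tests and correlations with permutation tests (Python 3.11.15, scipy 1.17.1, figures with matplotlib 3.10.9). edgeR 4.0.16 and DESeq2 1.42.0 on the recovered reads, other pseudocounts, filters and scalings, and fits without libraries were alternatives. The limma step and the permutation tests of differences and correlations were tested on simulated data, the alternatives were not. The members and lists were chosen with earlier results of these data known. Named miRNAs outside the family are the 3 most correlated with each 3p member and members of 1 fixed list. Host genes were read from GENCODE M21 (GRCm38).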

Additional observations from a re-analysis of the deposited data

Results flagged for a closer look

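In groups of 7 or 8 libraries, 7 of 60 checks found a library far from the others of its group, where chance gives about 1 in 20. miR-148a-3p was 5674 in ieCre short term 932, with the next library at 3655. miR-152-5p was 15.4 in ieCre long term 9491, with the next at 24.1. The 5p share of miR-148a in the same library was 0.263%, with the next at 0.545%. ieCre short term 10 was high in miR-148b-3p, at 0.0680% of all miRNA signal with the next at 0.0318%, and in miR-152-3p, at 0.0758% with the next at 0.0209%. ieET-1 short term 8992 was high in miR-148b-3p, at 0.0317% of all miRNA signal with the next at 0.0191%. ieET-1 long term 9490 was high in miR-152-3p, at 0.0231% of all miRNA signal with the next at 0.0125%.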

How the results depend on the processing

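No paired analysis was possible because the animal numbers do not repeat between groups. No alternative called a member or any miRNA between genotypes. Over time, limma called 0 members in each genotype. In ieCre the count of members was 2 with scaling to all miRNA reads, 2 with DESeq2, 1 without the near-identical pair and 1 with animals numbered 8000 or above. In ieET-1 it was 1 with edgeR and 1 with DESeq2. The count over all tested miRNAs in ieCre, 28, was 212 with scaling to all miRNA reads and 44 with DESeq2. In ieET-1 the count of 21 was 12 with a filter at 10, 38 with edgeR, 47 with DESeq2, 7 without the near-identical pair, 5 without the 4 libraries under 5000000 reads and 0 with animals numbered 8000 or above, where fewer libraries are compared. Leaving out 1 library at a time gave 0 to 1 members and 18 to 39 miRNAs in ieCre, 0 to 1 members and 7 to 30 miRNAs in ieET-1, and 0 to 3 shares in ieCre.

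Scaling to all miRNA reads moved the median of all tested miRNAs by -0.80, to -0.92, over time in ieCre and by -0.38, to -0.46, in ieET-1, and by -0.16 and 0.32 between genotypes at short and long term. Relative to the median of -0.92, the ieCre changes over time were higher for miR-148a-3p (-0.64), miR-148a-5p (-0.50) and miR-152-5p (-0.32) and lower for miR-148b-3p (-1.78) and miR-152-3p (-1.52). In ieET-1 miR-148b-3p and miR-152-3p turned to -0.38 and -0.39. Between genotypes at long term miR-148a-5p and miR-152-5p turned to 0.22 and 0.0320, their differences between times to 0.53 and 0.38, and the averaged change of miR-148b-3p to 0.0899.

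Other changes of direction were of values that passed no test, and the cause was not tested. The short-term genotype change of miR-148a-3p was 0.00664 with median-of-ratios scaling, 0.0581 with edgeR, 0.0721 with DESeq2 and 0.30 with animals numbered 8000 or above. With those animals it was 0.00862 for miR-148a-5p, 0.0610 for miR-152-3p and 0.35 for miR-152-5p. The long-term genotype change was -0.14 for miR-148a-3p and -0.22 for miR-152-3p in the 9000s, and -0.0315 for miR-152-3p with edgeR. With a term for the range of animal number the averaged genotype change was -0.0172 for miR-148a-3p and 0.00631 for miR-148b-3p. For miR-148b-3p it was 0.0153 with median-of-ratios scaling, 0.0163 with DESeq2 and 0.0427 without libraries under 5000000 reads. The ieET-1 change over time of miR-148b-3p was -0.0101 with edgeR, -0.00995 without the near-identical pair and -0.36 with animals numbered 8000 or above, and that of miR-152-3p was -0.0254 without the pair, -0.0508 without libraries under 5000000 reads and -0.31 with those animals.

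Among shares, in percentage points, the genotype difference in the 5p share was 0.0374 for miR-148a in short-term animals below 1000, -0.323 for miR-148b in short-term animals numbered 8000 or above and 0.0761 for miR-148b in the long-term 9000s, and 0.0861 for miR-148b at long term as a log2 ratio. The miR-148b-5p share over time differed by 0.0146 in ieCre without the near-identical pair and by 0.186 in ieET-1 with animals numbered 8000 or above. At long term the genotype difference in the 3p share was -1.18 for miR-148a-3p and 0.532 for miR-152-3p in the 8000s, and -0.798 for miR-148a-3p in the 9000s. The correlations of miR-148a-3p with miR-148b-3p and miR-152-3p turned to 0.40 and 0.31 as shares of all signal.

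Leaving out 1 library turned the direction of these values, given as ranges of log2 changes. Between genotypes they were -0.15 to 0.0695 for miR-148a-3p at short term, -0.0398 to 0.26 for miR-152-3p at long term and -0.10 to 0.0550 for miR-148b-3p averaged. The difference between times was -0.28 to 0.0869 for miR-148a-5p and -0.35 to 0.0681 for miR-152-5p. Over time in ieET-1 they were -0.00995 to 0.21 for miR-148b-3p and -0.0254 to 0.19 for miR-152-3p. In percentage points, the 5p share of miR-148b differed between genotypes by -0.0375 to 0.0848 at short term and -0.0954 to 0.0949 at long term, and over time in ieCre by -0.143 to 0.0472. The long-term genotype difference in the 3p share was -0.246 to 0.855 for miR-148a-3p and -0.165 to 0.450 for miR-148b-3p.

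Depth limits miR-148b-5p, with at most 48 reads, and p-values rest on 7 or 8 libraries per group.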
